A study of Arabidopsis thaliana with 8 samples.

Results

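The glutathione S-transferase (GST) gene family was followed in leaf mRNA of wild-type Arabidopsis thaliana and of ABI3:MTA plants. Its 49 members were chosen by gene identifier from 6 annotated classes, and the family was picked with earlier results of these libraries, its levels in both genotypes among them, in view. They comprise 28 tau (GSTU), 13 phi (GSTF), 3 lambda (GSTL) and 3 dehydroascorbate reductase (DHAR) genes, 1 zeta gene (GSTZ1) and 1 theta gene (GSTT1). They are 49 of the 20690 genes listed in at least 1 library. Both genotypes are in the Col-0 accession, and the groups are wild type (WT, 4 libraries) and ABI3:MTA (mta, 4 libraries). Leaves 5 to 9 of soil-grown plants 4 weeks old were taken 4 hours after first light, under a day of 16 hours and a temperature of 22 °C. MTA is the catalytic subunit of the enzyme complex that writes N6-methyladenosine into mRNA, and its loss stops embryo development. In ABI3:MTA plants the MTA coding sequence is driven by the ABI3 promoter, which is active in embryos, so that plants lacking normal MTA activity reach adulthood. The labels name neither the mutant allele nor how many transgenic lines or plants a library holds, nor whether libraries come from separate plants, so p-values measure library-to-library spread, part of which may be technical.

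Glutathione transferases join the thiol of glutathione to reactive or foreign compounds, and the conjugates are then carried into the vacuole and broken down. Tau and phi enzymes make up most of the plant family, use a serine in the active site, and are known from herbicide detoxification, safener responses, pathogen responses and the synthesis of sulfur-containing defence compounds. Lambda enzymes and dehydroascorbate reductases have a cysteine in its place and act as thiol transferases or reductases, the latter returning dehydroascorbate to ascorbate at the expense of glutathione. Many tau and phi genes lie next to each other in tandem arrays.

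The values are normalised read counts: the deposited counts per gene, already divided by 1 factor per library, were further divided by a trimmed-mean (TMM) factor for each library, and genes that a library did not list, which are below 1 there, were set to 0. If 1 step of the deposited values is 1 read, the libraries hold between 17130000 and 25380000 reads in genes, to the nearest 10000. Means are given ± SD with n = 4 libraries per genotype. Log2 fold changes (mta minus WT) were computed from log2(value + 1), a scale that shrinks differences of weakly expressed genes, and are given ± SE with limma p-values adjusted by the Benjamini-Hochberg method over 18328 tested genes at a threshold of 0.05. MTA itself ranged from 66.1 to 84.5 in the WT libraries and from 41.1 to 61.2 in the mta libraries (log2 fold change -0.51, limma adjusted p = 0.0319), and reads of the native gene and of the transgene cannot be told apart. Libraries of 1 genotype also differed from each other across the family. WT 1 was the highest WT library for 23 of the 43 tested members. In mta, mta 1 was the highest library for 22 of them and mta 4 the lowest for 26. Transcripts of the tested members are short, with a median of 1105 nt against 1758 nt over the tested genes with a known length. Removing each library's trend along transcript length lost no call and added GSTF9, GSTL2, DHAR2 and DHAR3.

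Members to test were selected on their deposited levels, which had to reach 3 in at least 4 libraries. This kept 43 members. GSTU14, GSTU15, GSTU21 and GSTF14 were listed in no library. GSTU22 was listed in 1 library, WT 2, at a deposited value of 1.47, and GSTF13 in 2 libraries with a highest value of 1.13. These members reached 3 in no library and lay well below the filter. Just inside it were GSTU28, with deposited values of 1.89 to 5.44, GSTU2, with 2.73 to 5.46, and GSTF5, with 1.70 to 6.22. GSTF5 reached 3 in 4 mta libraries and in 0 WT libraries, so it entered the test through the genotype in which it was higher, and its difference is given as a description. Few members share long identical stretches with other genes in the RefSeq transcripts of TAIR10.1. Of the 50-base stretches of each transcript, 9.41% of those of GSTF6 occur in GSTF7 and 3.51% of those of GSTF3 in GSTF2. For DHAR1 13.7% occur in AT1G19550, and for GSTT1 3.6% in AT5G41220. GSTU17 and GSTU18 share 1.98% and 2.27% with each other and overlap on the same strand over 6.12% and 6.97% of their exon length. The values of these genes are therefore uncertain to that extent. Opposite-strand genes span 83.1% of the exon length of GSTF2, 100% of that of GSTF11, 24.2% of that of GSTU10, 29.9% of that of GSTU6, 71.1% of that of GSTU2, 65.1% of that of GSTF4 and 63.0% of that of GSTU7. These spans include the introns of the opposite genes. The kit keeps strand, but the strand setting of the counting is not given in the sources used here. For these members reads of the opposite gene may therefore be included, or their own reads set aside as ambiguous.

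A few phi and tau genes made up most of the family's transcripts in wild-type leaves. Per kb of transcript, GSTF2, a phi enzyme known to bind indole compounds, stood highest in WT at 4178 ± 380.5 normalised read counts per kb, followed by GSTF9 at 3680 ± 822, whose WT libraries overlapped those of GSTF2. GSTU19, a major safener-inducible tau enzyme, came next at 2028 ± 377 per kb and did not overlap GSTF9. GSTU20, GSTF6, GSTF10, DHAR1, GSTF8 and GSTL3 followed at 1486 to 1059 per kb, each overlapping the gene above it in the WT libraries. The 10 highest members held 80.9% of the family's summed WT level per kb. At the other end GSTU28, GSTU25 and GSTF5 were at 3.57, 3.32 and 1.81 per kb. In mta the first 5 members were the same and in the same order, while GSTF7 moved from place 10 to 6, GSTU3 from 22 to 17 and GSTU25 from 42 to 34.

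**Figure D1:**
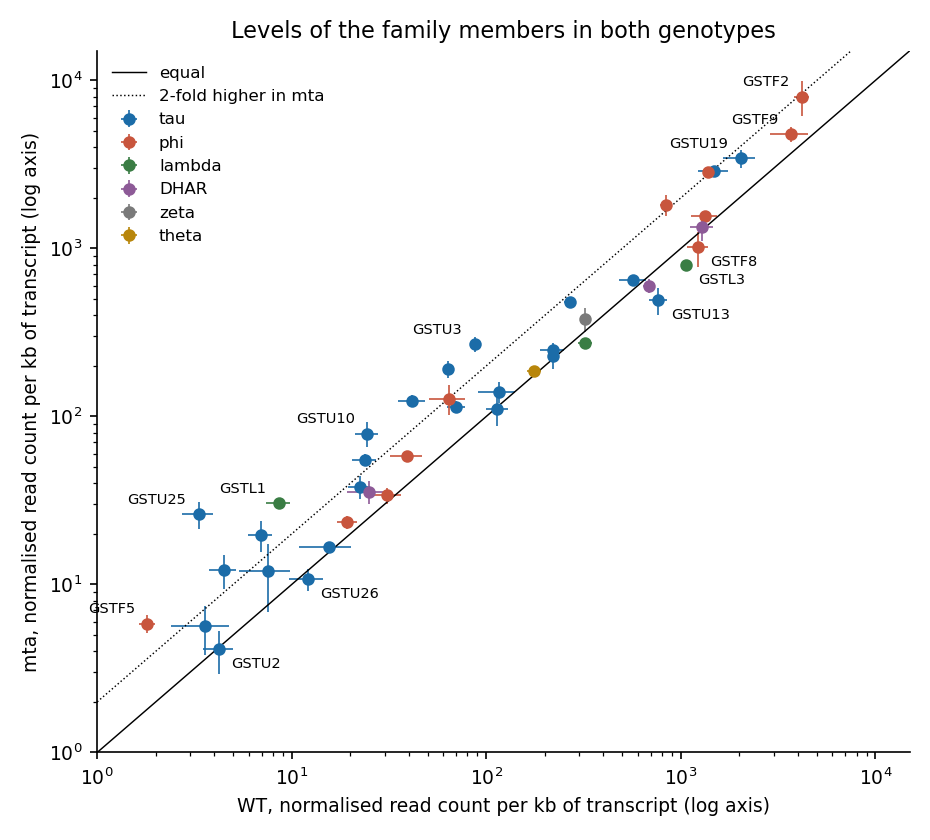
Mean normalised read count per kb of transcript of the 43 tested members in WT (x axis) and mta (y axis), both on log axes, with bars of 1 SD over 4 libraries; the solid line marks equal levels and the dotted line a level 2-fold higher in mta. GSTF2 lay at 4178 in WT and 7991 in mta, GSTU25 lay far above the dotted line at 3.32 and 26.1, and GSTU13, GSTL3 and GSTF8 were among the members below the solid line.

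More family members were higher than lower in mta. Of the 43 tested, 20 were called higher (46.5%, against 13.4% of all tested genes) and 2 lower (4.65%, against 12.9%), while 21 did not pass; over both directions 51.2% were called, against 26.3% of all tested genes. Without GSTF5, which entered through mta, 19 of 42 were higher (45.2%). All 4 mta libraries lay above all 4 WT libraries for 22 of the 43 members, or 21 of 42 without GSTF5, against 14.0% of all tested genes. They lay below all WT libraries for 3 of the 43, against 14.3% of all tested genes. A called rise of at least 2-fold on the log2(value + 1) scale was seen for 12 members (27.9%, against 3.15%), or 11 (26.2%) without GSTF5. The median log2 fold change of the tested members was 0.52, beside -0.01 over all tested genes. The tau and phi classes, with 24 and 11 of the 43 tested members, held 19 of the 20 members that were called higher, GSTF5 among them. In the tau class 13 of 24 tested genes were higher, 1 was lower and 10 did not pass, with a median of 0.72. In the phi class 6 of 11 rose, none fell and 5 missed the threshold, with a median of 0.56, and without GSTF5 5 of 10 rose, with a median of 0.48. Among the 3 lambda genes 1 was higher, 1 was lower and 1 did not pass (median -0.24), and of the 3 DHAR genes and the single zeta and theta genes 0 passed. These shares describe classes of very different size, and the differences between classes were not tested.

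Leaving out any 1 library gave 19 to 25 members higher and 2 lower. With the deposited scaling alone, which moved the median of all tested genes from -0.01 to -0.16, 20 members were higher and 5 lower, and 4249 of all tested genes were lower in place of 2357. Libraries at the ends of their genotypes, WT 1, mta 1 and mta 4, were also left out together. That leaves WT 2, WT 3 and WT 4 against mta 2 and mta 3, with a spread narrowed by the choice. In that fit 26 of 41 members were higher (63.4%) and 2 lower. Calls over all tested genes also rose, to 22.2% higher and 24.2% lower. Marker lists for leaf cell types were read in the fit of all 8 libraries. There 13.4% of all tested genes were higher and 12.9% lower. Of 8 vasculature markers 4 rose in mta and 0 fell, and their summed level was 2394 to 2555 in WT and 3106 to 3598 in mta. Among the 8 epidermis and guard cell markers 3 were higher and 0 lower, with overlapping sums of 7416 to 8064 and 6096 to 8823. Of the 4 mesophyll markers 2 were higher and 0 lower. These were RBCS1A (log2 fold change 0.87, limma adjusted p = 0.0116) and CA1 (0.77, 0.00622). LHCA1 and LHCB2.1 overlapped between genotypes and did not pass (limma adjusted p of 0.435 and 0.0639). The summed level of the list was 200270 to 235170 in WT and 257730 to 451230 in mta, without overlap. Most of that sum was RBCS1A, with means of 134610 in WT and 252330 in mta beside 219040 and 364430 for the list. Every marker of the 3 lists was listed in at least 1 library. Their part in the family's differences was not tested. In bulk leaf RNA more cells of a type and more RNA per cell cannot be told apart.

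**Figure D2:**
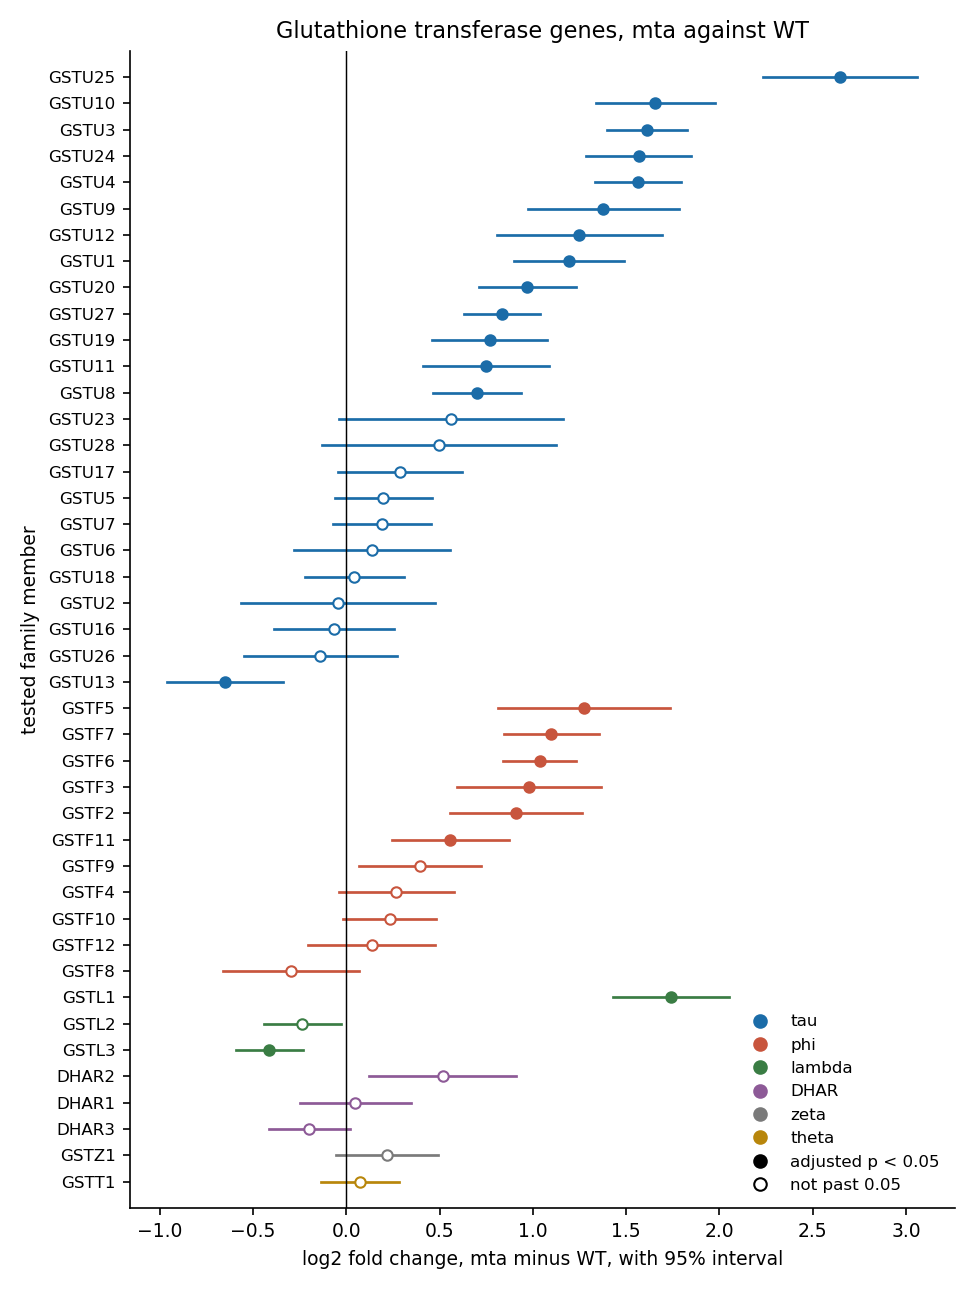
Log2 fold change (mta minus WT, x axis) of each tested member (y axis) with its 95% interval, coloured by class; filled points passed an adjusted p of 0.05. The tau genes run from 2.65 for GSTU25 to -0.65 for GSTU13. The phi genes run from 1.10 for GSTF7 to -0.29 for GSTF8, with GSTF5, which entered the test through mta, above them at 1.27. The lambda genes GSTL1 (1.74) and GSTL3 (-0.41) lie on opposite sides of 0.

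Among tau genes the highest fold change was that of GSTU25 (AT1G17180), which with GSTU24 (AT1G17170) encodes enzymes known to conjugate the explosive trinitrotoluene. Normalised read counts of GSTU25 were 3.18, 4.06, 3.65 and 2.62 in WT 1 to 4 and 23.0, 32.4, 28.3 and 22.3 in mta 1 to 4. Every mta library lay far above every WT library. GSTU25 rose 7.85-fold in mean, with a log2 fold change of 2.65 ± 0.19 (limma adjusted p = 5.90e-06). GSTU24, its neighbour on the chromosome, stood at 60.3, 50.7, 40.9 and 48.2 in the WT libraries and 144, 137, 162 and 154 in the mta libraries, with no overlap, and rose by 1.57 ± 0.13 on the log2 scale (limma adjusted p = 1.45e-05). GSTU10 (AT1G74590) stood at 28.3, 32.8, 28.1 and 23.4 in the WT libraries and 84.6, 82.2, 83.3 and 115 in the mta libraries. The value in mta 4 lies apart from the other mta libraries, which lie close together, and all are above WT. Its log2 fold change was 1.66 ± 0.15 (limma adjusted p = 2.45e-05).

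GSTU3 (AT2G29470) and GSTU4 (AT2G29460), neighbours on chromosome 2, both rose. GSTU3 counts were 89.6, 93.0, 95.4 and 95.1 in the WT libraries and 262, 294, 326 and 269 in the mta libraries, and those of GSTU4 were 80.0, 71.0, 73.2 and 75.1 in the WT libraries and 259, 221, 220.0 and 197 in the mta libraries. WT libraries of both genes were close to each other, and every mta library was well above them. The log2 fold changes were 1.61 ± 0.10 for GSTU3 and 1.56 ± 0.11 for GSTU4 (limma adjusted p of 2.10e-06 and 4.12e-06), or 3.09-fold and 2.99-fold in mean. GSTU1 (AT2G29490), in the same array, was at 21.6, 24.7, 30.0 and 28.6 in the WT libraries and 54.7, 67.8, 59.9 and 61.6 in the mta libraries, again without overlap, and rose by 1.19 ± 0.13 (limma adjusted p = 0.000126).

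GSTU9 (AT5G62480) and GSTU12 (AT1G69920) were low in both genotypes. GSTU9 was at 6.99, 8.45, 5.99 and 7.15 in the WT libraries and 26.1, 17.5, 16.8 and 21.0 in the mta libraries, and GSTU12 at 5.40, 4.06, 4.69 and 3.81 in the WT libraries and 11.8, 10.7, 16.1 and 9.95 in the mta libraries. Neither overlapped between genotypes, and they rose by 1.38 ± 0.18 and 1.25 ± 0.20 on the log2 scale (limma adjusted p of 0.000373 and 0.00123). GSTU11 (AT1G69930), next to GSTU12, rose from 24.2 ± 3.08 to 41.6 ± 6.61 and GSTU8 (AT3G09270) from 95.4 ± 9.80 to 156 ± 12.1, with log2 fold changes of 0.75 and 0.70 (limma adjusted p of 0.00478 and 0.000886).

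The abundant tau genes GSTU19 (AT1G78380) and GSTU20 (AT1G78370) rose too, from much higher WT levels. GSTU20, linked to jasmonate signalling and glucosinolate synthesis, was at 2162, 1561, 1532 and 1562 in the WT libraries and 3336, 3358, 3222 and 3296 in the mta libraries. Its mta libraries lay close together, and WT 1 was the highest WT library. GSTU19 was at 2901, 2048, 2014 and 2124 in the WT libraries and 4261, 3998, 3953 and 3175 in the mta libraries, where WT 1 again stood above the other WT libraries and mta 4 was the lowest mta library, still without overlap. The log2 fold changes were 0.97 ± 0.12 and 0.77 ± 0.14 (limma adjusted p of 0.000219 and 0.00239). GSTU27 (AT3G43800) was at 293, 302, 274 and 258 in the WT libraries and 457, 511, 500.2 and 544 in the mta libraries, did not overlap, and rose by 0.83 ± 0.09 (limma adjusted p = 0.000118).

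GSTU13 (AT1G27130) was the tau gene that fell. It encodes an enzyme known to act in the pathogen-triggered metabolism of indole glucosinolates. Its counts were 1115, 897, 898 and 1020 in the WT libraries and 747, 665, 644 and 471 in the mta libraries, with every mta library below every WT library and mta 4 the lowest. The mean fell from 983 ± 105 to 632 ± 116, a log2 fold change of -0.65 ± 0.14 (limma adjusted p = 0.00647). Within each library, which no scaling factor changes, GSTU19 had 2.08 to 2.60 times the reads of GSTU13 in WT and 5.70 to 6.75 times in mta.

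The 10 tau genes that did not pass were GSTU2, GSTU5, GSTU6, GSTU7, GSTU16, GSTU17, GSTU18, GSTU23, GSTU26 and GSTU28. Their log2 fold changes ran from -0.14 for GSTU26 to 0.56 for GSTU23, whose 95% interval was -0.04 to 1.16 and whose mta 4 value (17.2) stood apart from the other mta libraries (7.31 to 8.90). GSTU5, the highest of them per kb, had counts of 724 ± 116 in WT and 825 ± 62.0 in mta, an interval of -0.06 to 0.46 on the log2 scale. GSTU5 and GSTU17, a gene of drought and light responses, passed without WT 1 (limma adjusted p of 0.0490 and 0.0294, log2 fold changes of 0.27 and 0.39). GSTU18 (interval -0.22 to 0.31) and GSTU16 (-0.39 to 0.26) had estimates near 0.

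Among phi genes GSTF2 (AT4G02520), the most abundant family member, gained the most reads. Its counts were 6544, 5512, 5846 and 6684 in WT 1 to 4 and 14986, 10609, 12773 and 8653 in mta 1 to 4. The mta libraries spread widely, from mta 4 to mta 1, yet all lay above WT. GSTF2 rose from 6146 ± 559.6 to 11755 ± 2733, a log2 fold change of 0.91 ± 0.16 (limma adjusted p = 0.00214). GSTF3 (AT2G02930), its close relative, was at 72.7, 57.2, 54.5 and 84.9 in the WT libraries and 155, 112, 158 and 109 in the mta libraries, without overlap, and rose by 0.98 ± 0.18 (limma adjusted p = 0.00223).

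GSTF6 (AT1G02930), GSTF7 (AT1G02920) and GSTF5 (AT1G02940) are neighbours on chromosome 1. GSTF6, which makes the glutathione conjugate of indole-3-acetonitrile on the way to the phytoalexin camalexin, was at 1646, 1618, 1584 and 1682 in the WT libraries and 3711, 3154, 3407 and 3151 in the mta libraries. GSTF7, a gene known to respond to pathogens, was at 953, 1031, 969 and 1119 in the WT libraries and 2532, 2098, 2339 and 1811 in the mta libraries. For both genes the WT libraries were close together and well below every mta library. The log2 fold changes were 1.04 ± 0.09 and 1.10 ± 0.12 (limma adjusted p of 2.19e-05 and 7.71e-05). Reads of GSTF7 per read of GSTF6 were 0.579 to 0.665 in WT and 0.575 to 0.686 in mta, ranges that overlap. GSTF5 was near the lowest listed values in WT, at 1.91, 1.69, 1.56 and 1.91 in the WT libraries and 4.88, 6.28, 6.26 and 5.38 in the mta libraries, and its mean was 3.23 times higher in mta.

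GSTF11 (AT3G03190), known to act with GSTU20 in the synthesis of aliphatic glucosinolates, rose from 36.7 ± 6.81 to 54.0 ± 4.22 with a log2 fold change of 0.56 ± 0.14 (limma adjusted p = 0.0151, but 0.0539 without WT 4). GSTF9 (AT2G30860) and GSTF10 (AT2G30870), adjacent genes linked to indole glucosinolate synthesis, did not pass. GSTF9 was at 6042, 3938, 3926 and 4244 in the WT libraries and 6764, 5752, 5812 and 5247 in the mta libraries. WT 1 stood inside the mta range, and the other WT libraries lay below all mta libraries. The log2 fold change of GSTF9 was 0.40 ± 0.15 (95% interval 0.07 to 0.72, limma adjusted p = 0.0723), and without WT 1 it was 0.50 with an adjusted p of 0.00440. It also passed without mta 4 (limma adjusted p = 0.0350) and with the length trend removed (0.0257). For GSTF10 the change was 0.23 ± 0.11 (adjusted p = 0.156), and without WT 1 it was 0.30 with a limma adjusted p of 0.0198. GSTF8, an early stress-response gene, had the lowest phi estimate, -0.29 ± 0.17 with an interval of -0.66 to 0.07, and passed with the deposited scaling alone (-0.44, limma adjusted p = 0.0281). GSTF12, the anthocyanin carrier TT19, had an interval of -0.20 to 0.48 and GSTF4 of -0.04 to 0.58.

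The 3 lambda genes did not move together. GSTL1 (AT5G02780), induced by safeners, was at 11.4, 8.45, 9.90 and 8.82 in the WT libraries and 36.2, 32.2, 35.6 and 33.6 in the mta libraries. It rose 3.56-fold in mean, with a log2 fold change of 1.74 ± 0.14 (limma adjusted p = 1.45e-05) and no overlap. GSTL3 (AT5G02790), the gene next to it, was at 1294, 1176, 1235 and 1254 in WT and 909, 951, 973 and 891 in mta. Its mean fell 1.33-fold, a log2 fold change of -0.41 ± 0.08 (limma adjusted p = 0.0038), with all mta libraries below WT. Within libraries GSTL1 had 0.00703 to 0.00883 reads per read of GSTL3 in WT and 0.0338 to 0.0398 in mta. GSTL2 (AT3G55040), which encodes a plastid enzyme, was lower in every mta library (276 to 312) than in every WT library (322 to 387). Its change of -0.24 ± 0.09 did not pass (limma adjusted p = 0.0859), though it did with the deposited scaling alone (0.00487) and with the length trend removed (0.0226).

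No dehydroascorbate reductase gene passed the test. DHAR1 (AT1G19570) of the cytosol and peroxisome was at 1174 ± 156 in WT and 1220 ± 212 in mta, with a 95% interval of -0.25 to 0.35 on the log2 scale. DHAR3 (AT5G16710) of the chloroplast had an estimate of -0.20 ± 0.10 (limma adjusted p = 0.161, but 0.00377 with the deposited scaling alone and 0.0335 with the length trend removed). DHAR2 (AT1G75270) of the cytosol was at 33.3, 18.9, 24.8 and 28.1 in the WT libraries and 46.3, 35.1, 34.6 and 34.4 in the mta libraries, with no overlap between genotypes. Its estimate was 0.52 ± 0.18 with a limma adjusted p of 0.0535, which was 0.0264 without WT 1, 0.0412 without mta 4 and 0.0199 with the length trend removed. GSTZ1, the maleylacetoacetate isomerase of tyrosine breakdown, had an interval of -0.05 to 0.49 (estimate 0.22; limma adjusted p of 0.221, but 0.00804 without mta 4), and GSTT1, a peroxisomal theta enzyme, one of -0.13 to 0.28. Over all 21 members that did not pass, the 95% interval lay within a 2-fold change in both directions for 19.

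Neighbouring members were compared within tandem arrays. Taking members with at most 3 genes between them as an array, 31 members fall into 10 arrays, 8 of which have at least 2 tested members. In 4 of those 8 a member that passed sits beside others that did not, and in 1 array members passed in opposite directions. The array of GSTU1 to GSTU7 on chromosome 2 held 3 members that rose (GSTU1, GSTU3 and GSTU4, 1.19 to 1.61) and 4 that did not pass (GSTU2, GSTU5, GSTU6 and GSTU7, -0.05 to 0.20). Their 95% intervals did not meet, with 1.33 to 1.80 for GSTU4 against -0.06 to 0.46 for GSTU5. Within libraries GSTU4 had 0.0894 to 0.118 reads per read of its near neighbour GSTU5 in WT and 0.225 to 0.307 in mta. In the array GSTU24 to GSTU26, GSTU26 had an interval of -0.55 to 0.27 beside 2.23 to 3.06 for GSTU25, and reads of GSTU25 per read of GSTU26 went from 0.246 to 0.275 in WT to 1.65 to 3.10 in mta. The array GSTU19 to GSTU23 held the abundant GSTU19 and GSTU20 together with GSTU21 and GSTU22, which were under the filter, and GSTU23. In GSTF4 to GSTF7, GSTF4 lay at 16.6 to 20.7 in WT and 21.2 to 25.8 in mta (log2 fold change 0.27 ± 0.14, limma adjusted p = 0.184). The pairs were singled out after their values were seen, and the ratios are given as a description.

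**Figure D3:**
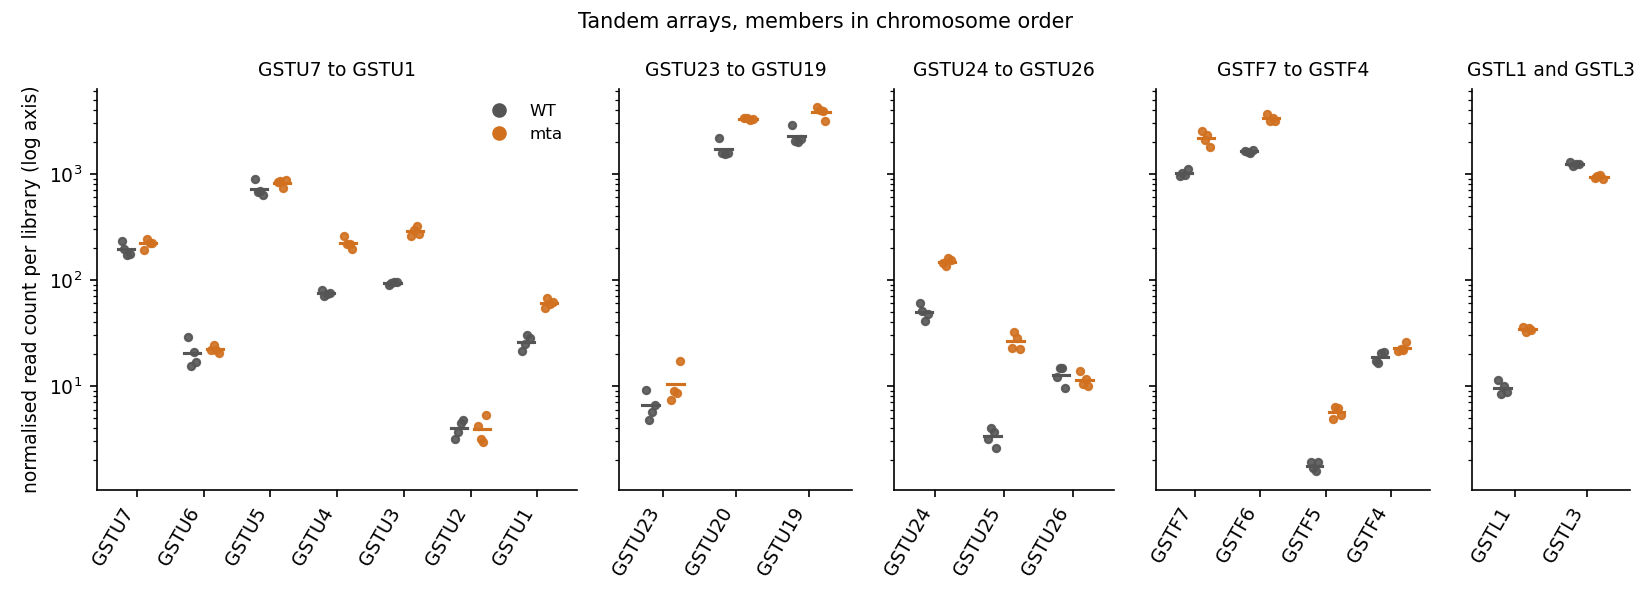
Normalised read counts (log axis) of the tested members of 5 tandem arrays, in chromosome order, with 1 point per library and a bar at the mean of the 4 WT (grey) and 4 mta (orange) libraries. In the first array GSTU4, GSTU3 and GSTU1 show mta points wholly above WT points, while GSTU7, GSTU6, GSTU5 and GSTU2 overlap; in the last GSTL1 lies higher and GSTL3 lower in mta.

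Summed over all 49 members, the family's normalised read count was 32735, 25994, 26206 and 28559 in WT 1 to 4 and 48192, 40180, 43140 and 35652 in mta 1 to 4. All mta sums were above all WT sums, with means of 28373 ± 3132 and 41791 ± 5262, or 1.47-fold. GSTF2 made up 41.8% of the difference of the means, GSTF6 12.8%, GSTU20 11.9%, GSTU19 11.7%, GSTF9 10.1% and GSTF7 8.77%. As a share of all reads in genes the family held 0.449 to 0.508% in WT and 0.595 to 0.662% in mta. By class, the tau sum was 1.55-fold and the phi sum 1.57-fold higher in mta, both without overlap. The lambda sum, carried by GSTL3, was 1507 to 1692 in WT and 1200 to 1321 in mta, while the DHAR sums overlapped at 1784 to 2252 and 1631 to 2280. The zeta and theta genes are given above.

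Genes that make, recycle and break down glutathione were read beside the transferases, in lists chosen with results known. Of 48 genes in 5 lists of glutathione, ascorbate and xenobiotic response genes, 46 were tested, 12 of which were higher (26.1%, against 13.4% of all tested genes), 5 lower (10.9%, against 12.9%) and 29 not past the threshold, with a median of 0.02. With the deposited scaling alone 7 were higher and 10 lower. Without WT 1, mta 1 and mta 4, the libraries at the ends, 15 were higher (32.6%, against 22.2% of all tested genes) and 12 lower (26.1%, against 24.2%). In glutathione synthesis, plastid export and reduction 1 of 7 was higher and 0 lower. That gene was CLT3, a thiol exporter of the plastid envelope (144 ± 6.59 to 201 ± 25.0, log2 fold change 0.47 ± 0.11, limma adjusted p = 0.0085). GR, the plastid glutathione reductase, was at 1228 ± 99.1 in WT and 1052 ± 178 in mta and did not pass (-0.24 ± 0.13, limma adjusted p = 0.212), but passed with the deposited scaling alone (0.0345). Without mta 4, 2 genes of this list were higher.

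In the transport and breakdown of glutathione and its conjugates 3 of 11 tested genes were higher and 2 lower. GGCT2;1 (AT5G26220), a cytosolic gamma-glutamyl cyclotransferase that degrades glutathione, rose from 31.5 ± 0.937 to 76.5 ± 4.08 (1.25 ± 0.10, limma adjusted p = 1.45e-05). GGP3, a gamma-glutamyl peptidase, fell from 181 ± 15.4 to 103 ± 8.92 (-0.81 ± 0.11, limma adjusted p = 0.000315). GGT1, an extracellular gamma-glutamyl transferase, fell from 1870 ± 45.3 to 1483 ± 122 (-0.34 ± 0.09, limma adjusted p = 0.0177), a call that was lost without WT 2, WT 3 or WT 4 (0.0503, 0.0504 and 0.0634). The count of these genes that were higher was 1 without WT 4, without mta 2 and with the deposited scaling alone. The count lower was 1 without WT 2, WT 3 or WT 4 and 4 without mta 4. Among 7 glutathione peroxidase-like genes 0 were higher and 1 was lower, the plastid gene GPX1 (4430 ± 154 to 3048 ± 419, -0.55 ± 0.11, limma adjusted p = 0.00524). In this list 2 were lower without mta 1 and with the deposited scaling alone.

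The ascorbate side of the cycle went both ways, with 3 of 11 tested genes higher and 2 lower, or 5 lower with the deposited scaling alone; APX2 was listed in no library. MDAR3 (AT3G09940, RefSeq symbol MDHAR), a monodehydroascorbate reductase, rose from 254 ± 23.7 to 513 ± 41.7 (1.01 ± 0.10, limma adjusted p = 5.30e-05), and SAPX, the stromal and mitochondrial ascorbate peroxidase, from 316 ± 3.45 to 619 ± 102 (0.95 ± 0.12, limma adjusted p = 0.000256). MDAR4, the peroxisomal membrane isoform, fell from 1200 ± 98.3 to 843 ± 104 (-0.51 ± 0.11, limma adjusted p = 0.00547). Among 10 xenobiotic response genes and their regulators 5 were higher and 0 lower. NAC102 (333 ± 11.6 to 438 ± 14.9, limma adjusted p = 0.00438), UGT74E2 (47.4 ± 5.84 to 70.5 ± 7.62, 0.00773, but 0.0611 with the deposited scaling alone) and CYP81D8 (182 ± 7.39 to 247 ± 32.2, 0.0146, but 0.0538 without mta 2) had the smallest limma adjusted p-values. Their log2 fold changes were 0.40 ± 0.08, 0.56 ± 0.13 and 0.43 ± 0.11. This count of 5 was 3 without any 1 of WT 2, WT 3, WT 4, mta 1, mta 2 or mta 3. It was also 3 with WT 2 and WT 3 averaged, and 2 with the deposited scaling alone.

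**Figure D4:**
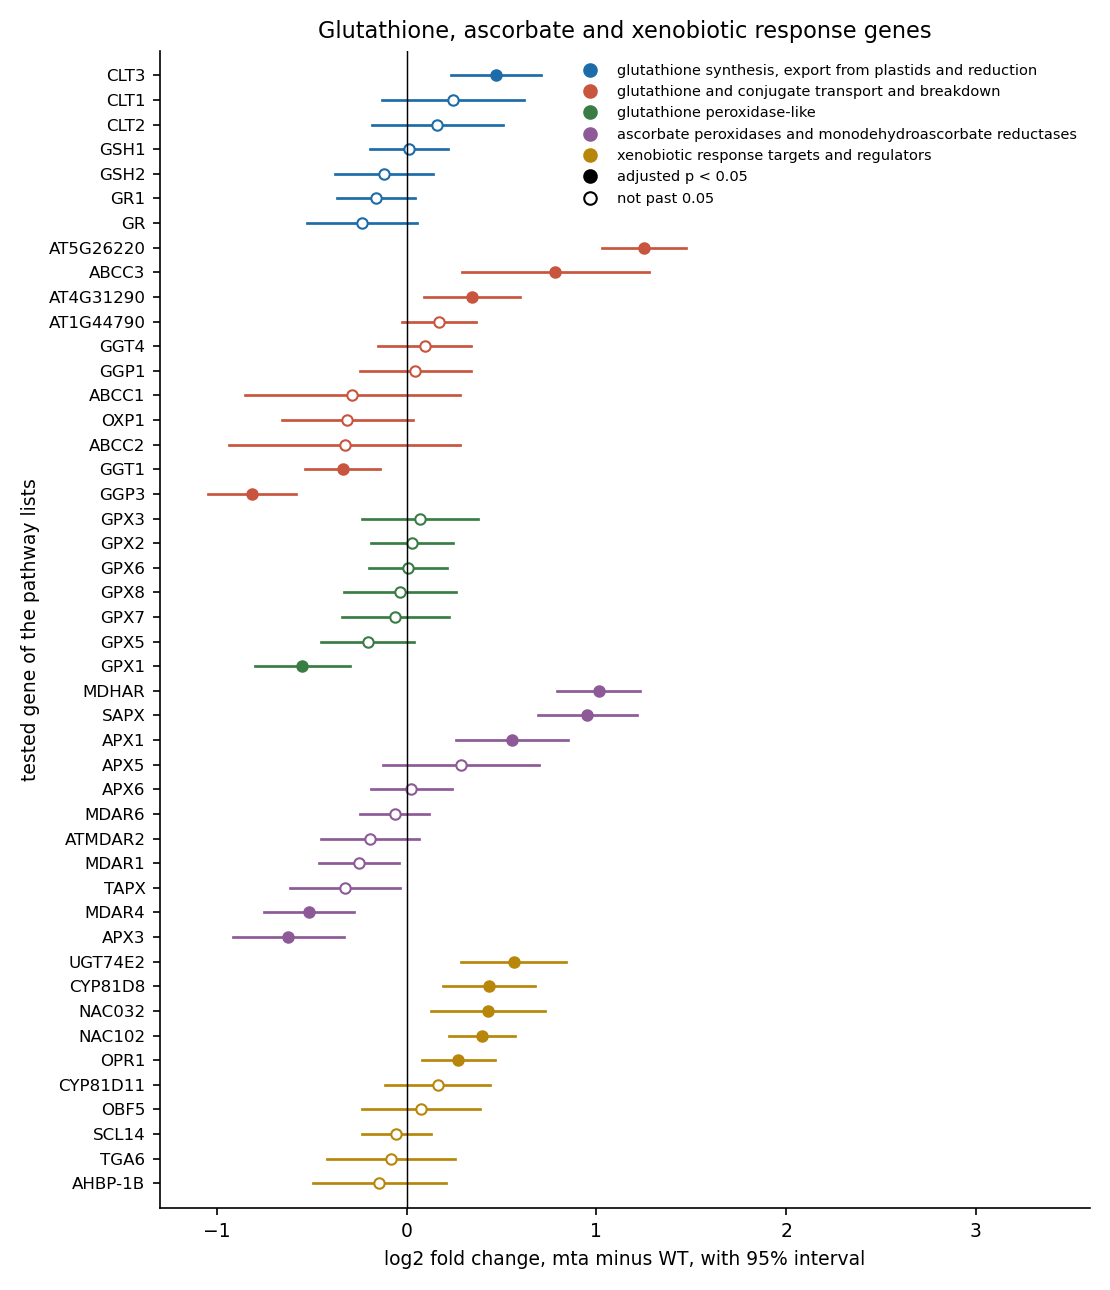
Log2 fold change (mta minus WT, x axis) with its 95% interval for the 46 tested genes of the 5 pathway lists (y axis, RefSeq symbols), coloured by list; filled points passed an adjusted p of 0.05. The 29 open points did not pass, and the estimates run between AT5G26220 (GGCT2;1) at 1.25 and GGP3 at -0.81.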

How the data were processed

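Poly(A) RNA from 8 leaf libraries was sequenced with strand-specific kits, and samples were grouped by their titles. Per the submitters' processing notes, STAR 2.4.0, HTSeq and DESeq2 and the build TAIR10 were used before deposit; order and settings are not given. The deposited unit is a signal per gene, a read count per gene after division by a library factor, with genes under 1 left unlisted; in every library 100% of values under 40 were whole multiples of 1 step (within 0.05). Rows that name no gene (4.92 to 5.97% without a feature, 0.359 to 0.406% ambiguous and 6.06 to 9.07% with several alignments) were left out.

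From these values, trimmed mean of M values factors (0.88 to 1.09; trims of 0.3 and 0.05) were computed, genes with at least 3 in at least 4 libraries kept, and log2(value + 1) fitted with limma 3.58.1 in R 4.3.3 (mean-variance trend, genotype as the only term), which was tested on simulated data. A count model was not used, as the values are not counts. Members and lists were chosen with earlier results of these data known. Values in every library are given for the 16 called members with the largest changes and the 3 highest per kb; per pathway list up to 3 genes with the smallest p are named. Others were named after their values were seen. Symbols, neighbours, lengths (longest transcript) and shared stretches come from RefSeq TAIR10.1, whose coordinates are not given. Among libraries with the same number, WT 1 and mta 1 deviated together (correlation of 0.47), while the other pairs had correlations of 0.08, -0.20 and -0.35. Alternatives covered scaling, filters, pseudocounts, a replicate block, transcript length and single libraries. They also covered leaving out WT 1, mta 1 and mta 4 together and averaging WT 2 and WT 3.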

Additional observations from a re-analysis of the deposited data

Results flagged for a closer look

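A library lay apart from the other 3 of its genotype in 9 of 96 groups of 4 examined, by a gap beyond Dixon's 95% critical value. That limit is passed by chance in about 1 in 20 groups, and these groups share libraries, so the number carries no test. WT 1 accounted for 5 of them: GSTU19 at 2901 (others 2014 to 2124), GSTU20 at 2162 (1532 to 1562), GSTF9 at 6042 (3926 to 4244), GSTF10 at 1857 (1364 to 1431) and the summed tau level at 8637 (6452 to 6719 in the others). In mta 1, GSTU17 was at 197.5 (146.9 to 154.4) and DHAR2 at 46.3 (34.4 to 35.1). In mta 4, GSTU10 was at 114.6 (82.2 to 84.6) and GSTU23 at 17.2 (7.31 to 8.90). For GSTU19, GSTU20 and GSTU10 both genotypes stayed apart with these libraries included.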

How the results depend on the processing

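Under 18 alternatives, 21 of the 22 called members passed in the same direction wherever they were tested. The exception was GSTF11 without WT 4. GSTF5 is among the 21, but it entered the test through mta, so its passing is a description only. GSTF5 left the test whenever an mta library was left out, since the filter then removed it, and with a mean of at least 20 required GSTU9, GSTU12 and GSTU25 left it as well. Of the 21 members that did not pass, 10 passed in at least 1 alternative. With the deposited scaling alone 5 members were lower (GSTF8, GSTL2 and DHAR3 joined), the tau, phi and lambda medians were 0.58, 0.41 and -0.38, the log2 ratio of lambda sums was -0.49, and 7 pathway genes were higher and 10 lower. With the length trend removed 4 members were lower (GSTL2 and DHAR3 joined) and 22 higher (GSTF9 and DHAR2 joined). WT 1, mta 1 and mta 4 were left out together as the libraries at the ends, a choice that narrows the spread. Then 15 pathway genes were higher and 12 lower, when 24.2% of all tested genes were lower. The tau and lambda medians were 0.88 and -0.13, and the log2 ratio of lambda sums was -0.25. The causes were not tested. Leaving out 1 library gave 19 to 25 members higher, 2 lower, 8 to 13 pathway genes higher and 4 to 8 lower. The medians then ran from 0.68 to 0.78 (tau), 0.40 to 0.62 (phi), -0.28 to -0.19 (lambda) and -0.08 to 0.13 (DHAR), and the log2 ratios of sums from 0.58 to 0.70, 0.53 to 0.74, -0.37 to -0.32 and -0.15 to 0.04. Over all genes 1517 were lower without mta 2, against 2357. Deviations of WT 1 and mta 1 from their genotype means were correlated at 0.47. For the other same-numbered libraries the correlations were 0.08, -0.20 and -0.35. With a replicate block 22 members were higher and 2 lower, GSTF9 and DHAR2 being added. WT 2 and WT 3 lay close together, with family sums of 25994 and 26206 beside 32735 and 28559 in WT 1 and WT 4. Whether they come from separate plants is not given. With WT 2 and WT 3 averaged, 20 members were higher and 2 lower. The planned count tests were not run, as the values are not counts. Near the lowest listed values, the 95% intervals of GSTU2 and GSTU28 ran from -0.57 to 0.47 and from -0.13 to 1.12 on the log2 scale.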
